A study of Danio rerio with 8 samples.

Results

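The translation factors and tRNA synthetases are the proteins that load amino acids onto tRNAs, start a protein chain on the ribosome and extend it. Their genes were taken by symbol from the annotation of the arrays: initiation factors (symbols that begin with *eif1* to *eif6*, without the eIF2 alpha kinases), elongation factors (*eef1* and *eef2* symbols) and synthetases (1-letter amino acid codes followed by *ars*, and *eprs*). The rule found 106 genes of the 22657 genes named on the arrays, of which 32 were synthetases, 59 initiation factors and 15 elongation factors. The probes of the array design are summarised into transcript clusters, and each gene was read from its brightest cluster. The clusters of *eif2a* and *eef1b2* are shared with unrelated genes (*dcun1d5* and *zdbf2*), so counts and medians are over the other 104 genes.

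The samples were livers of adult wild-type AB zebrafish in 2 batches, run at different times. Each batch held 2 fish given oligo-fucoidan (OF), a brown seaweed extract of low molecular weight, and 2 control fish labelled as untreated (mock). The dose was 300 mg/kg, gavaged 3 times weekly over 1 month from an age of 5 months, and the labels give 6 months as the age. The OF group is 4 fish at 1 dose, so no dose relation can be read. All values are log2 signals, on which a step of 1 is a 2-fold step, and all changes are OF minus control on that scale with the standard error (SE) of the limma fit. A gene is called higher or lower in a batch where it changed over 2-fold at an unadjusted p under 0.05, the thresholds of the study's methods. No member reached an adjusted p under 0.05 in any fit, and having 2 fish per group limits how precise the values are.

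A synthetase joins 1 amino acid to its tRNAs, and most animals carry a cytosolic set and a mitochondrial set, each encoded in the nucleus. Initiation begins when the eIF4F complex binds the cap of an mRNA through eIF4E, while eIF2 brings the starting tRNA to the small ribosomal subunit. Elongation then runs on eEF1A, which delivers loaded tRNAs, and on eEF2, which moves the ribosome along. The liver makes most plasma proteins, and in egg-laying female fish also the yolk proteins (vitellogenins), so hepatocytes depend on a large supply of these factors.

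The livers carried hepatocyte markers at high levels in every fish, with a median log2 signal over 15 genes of 11.57 to 12.54. Some marker lists differed between OF fish and controls. Both OF fish lay below both controls for 10 of the 15 hepatocyte genes in batch 1 (66.7%, against 24.2% of all genes), with a median change of −0.35. In batch 2, 14 of the 15 had a positive change (median 0.27), and both OF fish lay above both controls for 5 (33.3%, against 22.2%). All 16 exocrine pancreas genes had a negative change in batch 1 (median −2.08), and 1 was called lower (6.25%, against 4.58% of all genes). Both OF fish lay below both controls for 5 of the 16 (31.2%, against 24.2%). The median signals were 2.0 and 4.72 in OF fish and 4.38 and 6.89 in controls, which overlapped. The median change in batch 2 was −0.30. The estrogen-responsive list, which holds the vitellogenins and the estrogen receptor gene *esr1*, had a median signal of 9.41 and 10.50 in OF fish 1 and 2 of batch 1, against 2.65 and 3.16 in the controls. In batch 2 it was 11.08 and 2.62 in the OF fish, against 11.28 and 11.17 in the controls. Thus OF fish 2 of batch 2 stood apart: its signal of the yolk protein gene *vtg7* was 1.75, against 12.92 in OF fish 1 and 13.37 and 13.56 in the controls. Of the 10 genes of this list, 8 were called higher in batch 1 (against 4.89% of all genes) and 0 were called in batch 2. The 10 ovary and oocyte genes were all called higher in batch 1, with medians of 7.6 and 5.05 in OF fish and of 1.82 and 2.1 in controls. In batch 2 they were at 3.29 and 1.90 in OF fish and at 2.78 and 3.54 in controls. Of 7 erythrocyte genes, 4 were called lower in batch 1 (against 4.58% of all genes) and 3 higher in batch 2 (against 3.21%). In whole liver RNA, fewer cells of a type and less RNA per cell cannot be told apart, and the part of these markers in the results below was not tested.

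In batch 2, OF fish had lower signals for a broad set of members. Of the 104 genes, 21 were called lower (20.2%, against 4.94% of all genes) and 1 higher (against 3.21%). The 2 OF fish both lay below the 2 controls for 54 members (51.9%, against 20.6% of all genes) and above them for 6 (against 22.2%). In batch 1 fewer members were called: 5 higher (against 4.89% of all genes) and 1 lower (against 4.58%). These counts rest on single fish: 8 were called higher without OF fish 2, 11 without control fish 1 and 1 without control fish 2, and 6 were called lower without OF fish 2. In batch 1 the OF fish lay above both controls for 29 members (27.9%, against 21.4% of all genes) and below them for 10 (against 24.2%). The median change over the members was 0.22 in batch 1 and −0.33 in batch 2, against −0.01 and 0.02 over all genes. Leaving out each fish in turn, 16 to 28 members were called lower in batch 2. The 21 genes were 8 cytosolic and 2 mitochondrial synthetases, 10 initiation factors and 1 elongation factor.

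**Figure D1:**
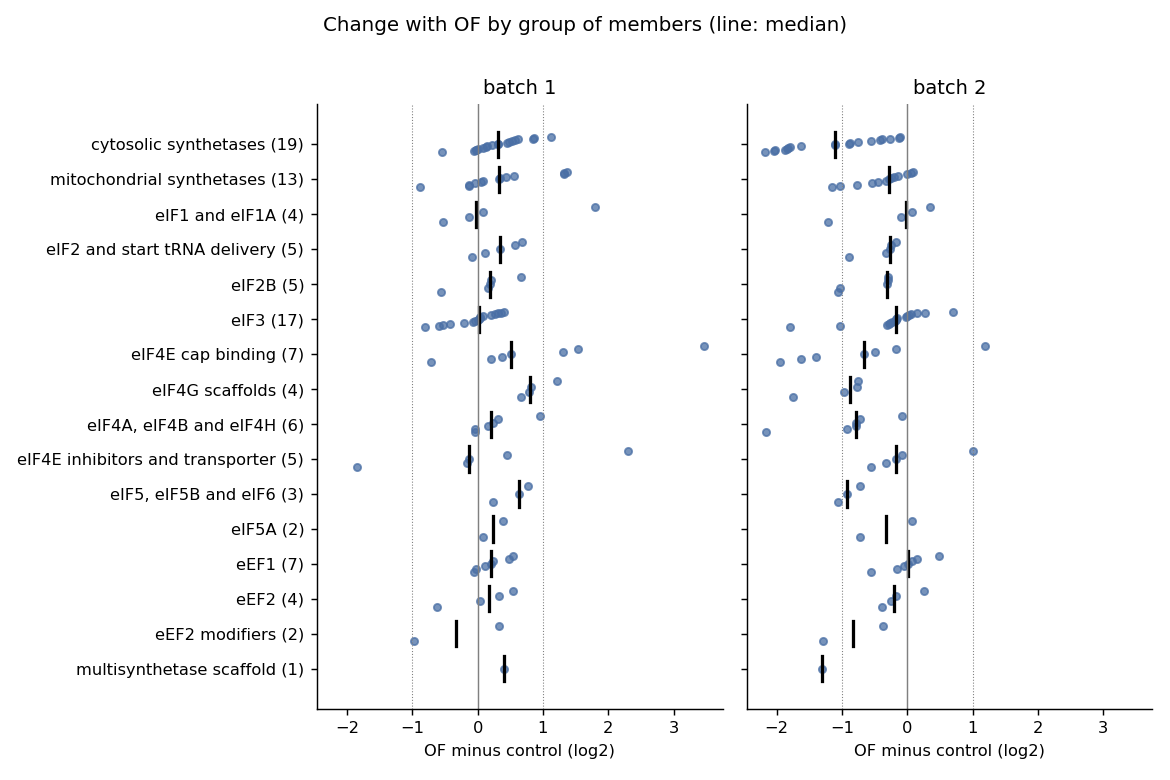
Change with OF (log2, horizontal axis) of each member (point) by functional group (rows, number of genes in brackets) in batch 1 (left panel) and batch 2 (right panel); black lines are group medians and dotted lines mark a 2-fold change. In batch 2 the cytosolic synthetases (median −1.11) and the eIF4G scaffolds (median −0.87) lie left of 0, while eEF1 and, apart from the 2 eIF3j genes, eIF3 lie around it.

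The cytosolic synthetases held 8 of the 21 calls in batch 2. All 19 had a negative change, 8 were called lower (42.1%, against 4.94% of all genes), and the median change was −1.11. The 8 were *cars*, *mars*, *yars*, *larsb*, *tars*, *vars*, *qars* and *rars*, which serve cysteine, methionine, tyrosine, leucine, threonine, valine, glutamine and arginine. They lie on 7 different chromosomes, so they are not neighbours of 1 region. In batch 1 none of the 19 was called in either direction, and the median change was 0.31. Over all genes, 4.89% were called higher and 4.58% lower in that batch.

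The glutamine enzyme gene *qars* had signals of 6.52 and 5.91 in the batch 2 OF fish, against 7.96 and 8.06 in the controls. Both OF fish were well below both controls, which were close to each other. The change was −1.80 ± 0.28 (SE), a 3.47-fold lower signal (limma, adjusted p = 0.227). In batch 1 *qars* had 5.54 and 5.20 in OF fish, against 5.44 and 3.57 in controls, and the groups overlapped. The methionine enzyme gene *mars* had 5.34 and 6.19 in the batch 2 OF fish and 7.56 and 8.06 in the controls. Its change was −2.05 ± 0.38, and here OF fish 1 was the lower of the pair.

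The cysteine enzyme gene *cars* had the most negative change of the 104 members in batch 2 (−2.18 ± 0.51), with 4.97 and 3.98 in OF fish and 6.16 and 7.15 in controls. The tyrosine enzyme gene *yars* had 7.13 and 6.17 in OF fish and 8.38 and 9.0 in controls (−2.03 ± 0.43). The arginine enzyme gene *rars* had 6.67 and 5.99 in OF fish and 7.83 and 8.09 in controls (−1.63 ± 0.31). For each of these 3 genes the gap between the groups was wider than the gap between the fish of either group. The valine enzyme gene *vars* had 6.76 and 5.63 in OF fish and 7.58 and 8.46 in controls (−1.83 ± 0.52), the leucine enzyme gene *larsb* 7.31 and 5.78 in OF fish and 8.10 and 8.74 in controls (−1.88 ± 0.59). The threonine enzyme gene *tars* had 6.83 and 5.64 in OF fish and 7.56 and 8.61 in controls (−1.85 ± 0.57). In these 3 genes OF fish 2 was over 1 log2 unit below OF fish 1, and the SE was larger. A second cluster of *tars*, at a mean log2 signal of 3.04, changed by 0.17 in batch 2 and does not show the difference.

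The other 11 cytosolic synthetases did not pass the thresholds. The serine enzyme gene *sars* (−1.11), the glycine enzyme gene *gars* (−0.89) and the isoleucine enzyme gene *iars* (−0.76) had both OF fish below both controls. The asparagine enzyme gene *nars* overlapped, with 10.88 and 8.39 in OF fish and 10.19 and 11.29 in controls. Least change was seen for the aspartate enzyme gene *dars* (−0.10) and for *farsa* (−0.13) and *farsb* (−0.27), whose products form the phenylalanine enzyme together. The brightest synthetase was *farsa*, with 10.58 and 9.92 in OF fish and 9.99 and 10.76 in controls of batch 2. The 19 changes ran from −2.18 to −0.10, and differences between the genes were not tested. The called genes were also the dimmer ones by the mean over the 8 arrays, which includes the OF fish behind the calls. Their mean log2 signals ran from 4.85 (*cars*) to 6.65 (*larsb*), against 7.25 (*hars*, for histidine) to 9.12 (*farsa*) for these 11. In the batch 2 controls alone the ranges overlapped. There the means ran from 6.66 (*cars*) to 8.69 (*yars*) for the called genes, and from 8.11 (*hars*) to 10.74 (*nars*) for the others. The part of signal level in the split was not tested.

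**Figure D2:**
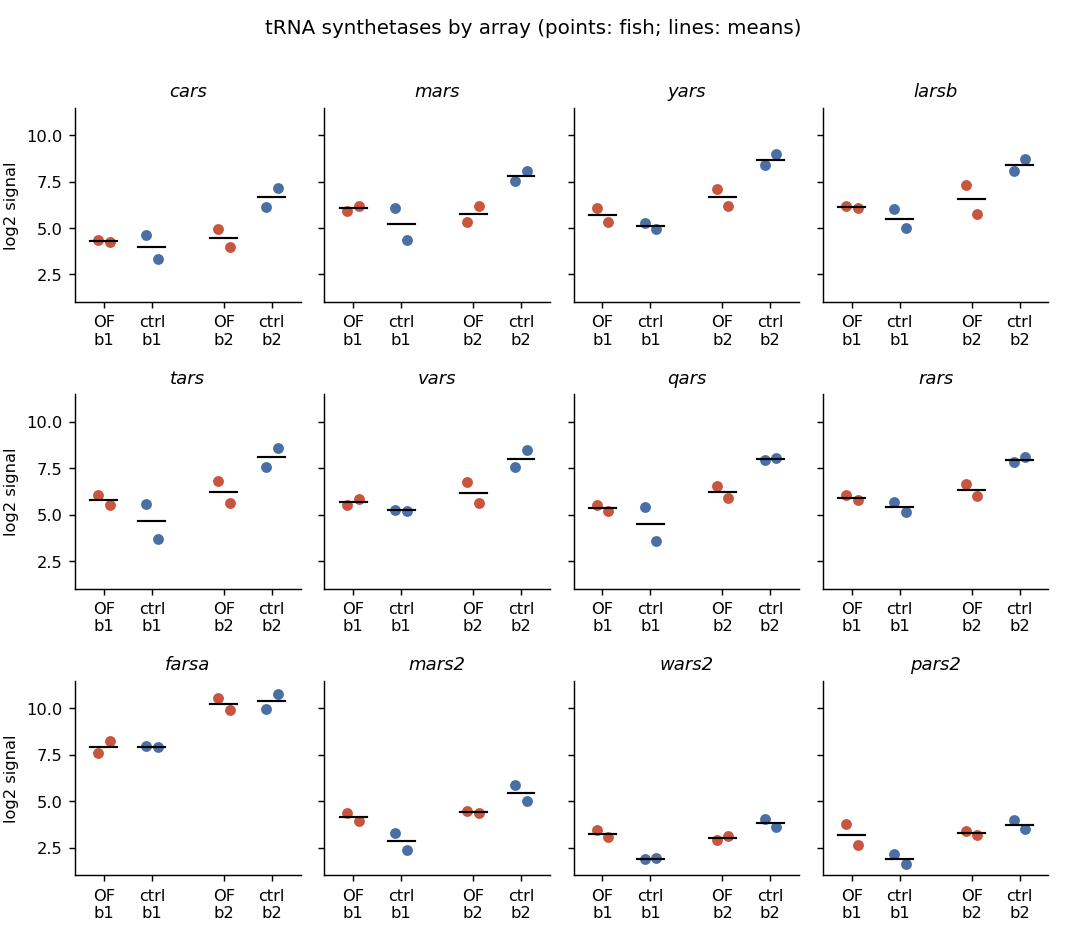
Log2 signal (vertical axis) of 12 tRNA synthetase genes in OF fish (red) and control fish (blue, "ctrl") of batch 1 (b1) and batch 2 (b2); points are fish and lines are means of 2. In batch 2 the OF points of *qars* (6.52 and 5.91) lie below the control points (7.96 and 8.06), while *farsa* overlaps, and *wars2* turns its direction between the batches.

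Several cytosolic synthetases sit in a multisynthetase complex, and the shift was seen inside and outside it. Of the 8 enzymes of the complex, 4 were called lower in batch 2 (50%, against 4.94% of all genes), with a median change of −1.26. These were *larsb*, *mars*, *qars* and *rars*. Of the 11 others, 4 were called lower (36.4%), with a median of −1.11. A scaffold protein of the complex, encoded by *eef1e1* and counted by its symbol among the elongation factors, had 5.75 and 4.57 in OF fish and 6.14 and 6.78 in controls. Its change of −1.30 ± 0.49 missed the p threshold (limma, adjusted p = 0.516). Of 3 genes of related scaffold proteins, 0 were called in batch 2, and the changes ran from −0.89 to 0.17 (*aimp2*) with a median of −0.41.

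The batch 2 shift was seen in the median of each OF fish but was larger in OF fish 2. Against the mean of the controls, the median difference over the 19 cytosolic synthetases was −0.55 in OF fish 1 and −1.62 in OF fish 2. In OF fish 1, 14 of the 19 genes lay below both controls, and in OF fish 2, 18 did. The share of all genes below both controls in a single OF fish was not counted, so these counts lack a background. OF fish 2 is also the fish with low estrogen-responsive genes: *esr1* had 10.55 in OF fish 1 and 5.16 in OF fish 2, against 10.70 and 10.61 in the controls. Without OF fish 2, the remaining OF fish is taken to vary like the controls, and 5 of the 8 genes were still called lower: *cars* (−1.68), *mars* (−2.47), *qars* (−1.49), *rars* (−1.29) and *yars* (−1.55). Without OF fish 1 the count was 13, and without control fish 2 it was 5.

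Genes that fold proteins in the endoplasmic reticulum (ER) moved with the synthetases. Of 26 ER chaperone and unfolded protein response genes, 16 were called lower in batch 2 (61.5%, against 4.94% of all genes), with a median change of −1.69. The main ER chaperone gene *hspa5* had 9.18 and 7.76 in OF fish and 11.66 and 11.57 in controls of batch 2. The co-chaperone gene *dnajb9b* had 4.59 and 4.96 in OF fish and 8.65 and 9.03 in controls (−4.07). In both genes each OF fish was below both controls. In batch 1 the same list had a median change of 1.07, with 1 gene called higher (3.85%, against 4.89% of all genes). There 1 control fish was low: *hspa5* had 10.32 and 8.05 in OF fish and 8.99 and 3.13 in controls. That low fish, control fish 2 of batch 1, was also low for *qars* (3.57) and *mars* (4.35), and without it the median change of the 32 synthetases in batch 1 was 0.0204 in place of 0.31.

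**Figure D3:**
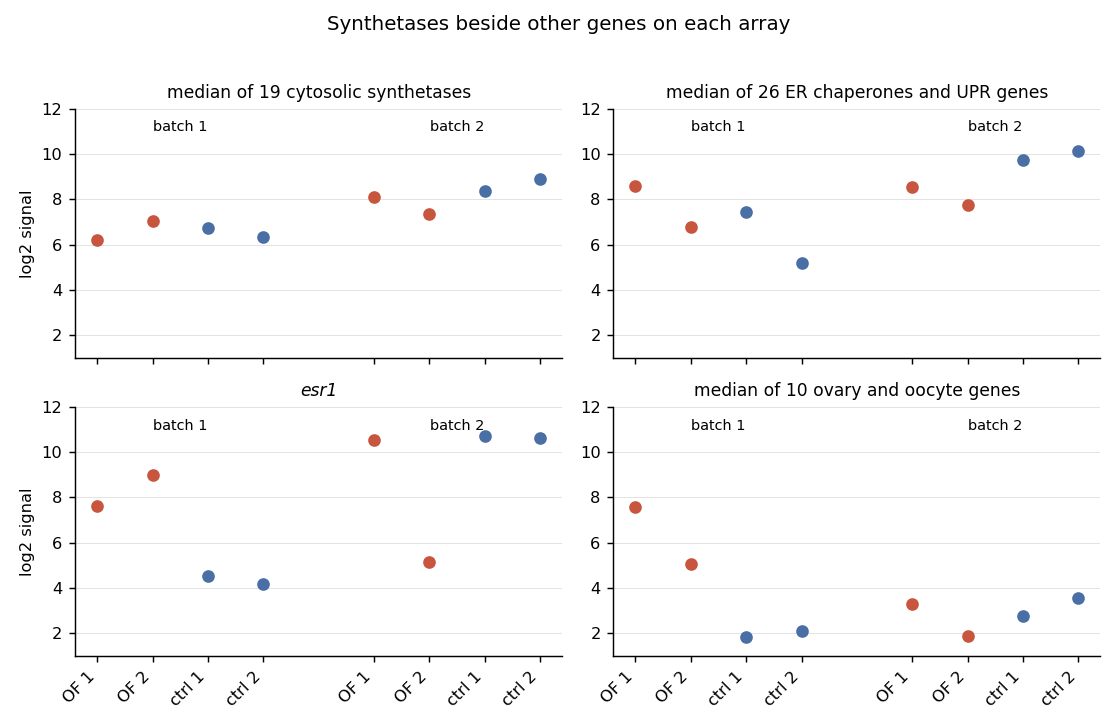
Log2 signal (vertical axis) on each of the 8 arrays (OF red, control blue, "ctrl"; batch 1 left, batch 2 right) for the median of the cytosolic synthetases, the median of the ER chaperone and unfolded protein response (UPR) genes, the estrogen receptor gene *esr1* and the median of the ovary and oocyte genes. In batch 2 both OF fish lie below both controls in the top panels (8.10 and 7.36 against 8.38 and 8.90 for the synthetases), whereas *esr1* is low in OF fish 2 only (5.16).

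The 13 mitochondrial synthetases load tRNAs for the proteins made inside the organelle, and they were dimmer on these arrays, with 5 of the 13 at a mean log2 signal of 4 or more. In batch 1, 3 were called higher (23.1%, against 4.89% of all genes): *mars2* (methionine), *pars2* (proline) and *wars2* (tryptophan). The tryptophan enzyme gene *wars2* had 3.45 and 3.05 in OF fish, against 1.86 and 1.91 in controls (1.37 ± 0.22). These control values lay below the median signal of the batch 1 arrays (2.11 to 2.13), so they are near the floor. In batch 2 *wars2* had 2.92 and 3.15 in OF fish, against 4.03 and 3.60 in controls (−0.78 ± 0.25). The groups did not overlap in either batch, but the direction turned, and the change differed between the batches by −2.14 ± 0.33 (limma, adjusted p = 0.12).

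The same turn was seen for *mars2*, with 4.36 and 3.96 in OF fish and 3.28 and 2.40 in controls of batch 1, and 4.46 and 4.35 in OF fish and 5.86 and 5.01 in controls of batch 2. It was called higher in batch 1 (1.32) and lower in batch 2 (−1.03), and the batch 1 call was lost without OF fish 1 (1.12) or control fish 2 (0.88), the batch 2 call without OF fish 1 (−1.09), OF fish 2 (−0.98) or control fish 1 (−0.60). The proline enzyme gene *pars2* was called higher in batch 1 (1.32 ± 0.47), a call lost without OF fish 1 (0.75) or either control, and changed by −0.45 in batch 2. The tyrosine enzyme gene *yars2* was called lower in batch 2 (−1.15 ± 0.37), a call lost without OF fish 2 (−0.97), and its second cluster changed by −1.10, short of the p threshold. The phenylalanine enzyme gene *fars2* ran the other way in batch 1, with 4.39 and 4.63 in OF fish and 5.42 and 5.38 in controls (−0.89 ± 0.19), under the 2-fold threshold. The median change of the 13 genes was 0.33 in batch 1 and −0.28 in batch 2.

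The eIF4 group held 5 of the 10 initiation factors called lower in batch 2. Some of its products act at the mRNA cap: eIF4E binds the cap, eIF4G is the scaffold, eIF4A unwinds the mRNA, and eIF4B and eIF4H help eIF4A. The 17 genes counted share the eIF4 name, and not all of them act there: the product of *eif4a3* marks spliced exon junctions. Of the 17 genes, 16 had a negative change in batch 2, with a median of −0.79. There 5 were called lower (29.4%, against 4.94% of all genes) and 1 higher (5.88%, against 3.21%). In batch 1 the median was 0.52, with 1 gene called higher (5.88%, against 4.89% of all genes) and 0 lower (against 4.58%). Without OF fish 2, 6 were called lower in batch 2, 4 of them among the 5.

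The gene *eif4ba*, which encodes an eIF4B, had 5.52 and 5.82 in the batch 2 OF fish, against 7.61 and 8.06 in the controls. Its change of −2.17 ± 0.26 had the smallest p of all members in batch 2 (limma, adjusted p = 0.2175). In batch 1 it had 5.78 and 4.81 in OF fish and 5.18 and 4.79 in controls, and the groups overlapped. Its paralog *eif4bb* had both OF fish below both controls in batch 2 (−0.79), under the 2-fold threshold.

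Of 7 genes that encode eIF4E forms, 3 were called lower in batch 2 (42.9%, against 4.94% of all genes). The gene *eif4ea* had 5.42 and 5.16 in OF fish and 7.05 and 6.78 in controls (−1.62 ± 0.23). The gene *eif4e1c*, a form found in fish, had 6.53 and 6.29 in OF fish and 8.68 and 8.03 in controls (−1.95 ± 0.30). The gene *eif4eb* had 8.0 and 6.98 in OF fish and 8.91 and 8.87 in controls (−1.40 ± 0.39), and its call was lost without OF fish 2 (−0.89). In each of the 3 the groups did not overlap. The scaffold gene *eif4g1a* had 9.07 and 8.39 in OF fish and 10.38 and 10.58 in controls (−1.75 ± 0.30), and the other 3 scaffold genes, *eif4g2a*, *eif4g2b* and *eif4g3b*, had changes of −0.97, −0.77 and −0.75 with no overlap.

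No helicase gene was called. The main eIF4A gene *eif4a1b* had 11.72 and 11.16 in OF fish and 11.49 and 11.55 in controls of batch 2 (−0.08 ± 0.27). The gene *eif4a2* overlapped (−0.93), and *eif4a3*, whose product marks spliced exon junctions, had 7.6 and 7.71 in OF fish and 8.28 and 8.47 in controls (−0.72 ± 0.20). The helper gene *eif4h* had 6.70 and 6.38 in OF fish and 7.37 and 7.30 in controls (−0.79 ± 0.22), also under the 2-fold threshold. For *eif4a3* and *eif4h* both OF fish lay below both controls.

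The gene *eif4e3* encodes a cap-binding protein of another class and went against its relatives. It had 8.11 and 8.28 in the batch 2 OF fish, against 6.83 and 7.18 in the controls (1.19 ± 0.23, called higher). In batch 1 it had 6.56 and 6.48 in OF fish and 6.99 and 7.47 in controls (−0.71 ± 0.24). The groups were apart in both batches and the direction turned, with a difference between batches of 1.91 ± 0.33 (limma, adjusted p = 0.126).

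The eIF4E binding proteins hold eIF4E away from eIF4G until the mTORC1 kinase phosphorylates them. The gene *eif4ebp3l* was the only member called lower in batch 1, with 7.36 and 7.61 in OF fish and 9.58 and 9.08 in controls (−1.84 ± 0.26). In batch 2 it had 7.96 and 8.44 in OF fish and 6.64 and 7.76 in controls (1.0 ± 0.45, short of the p threshold), so its values turned in the same way as those of *eif4e3*. The other 3 binding protein genes gave no call: *eif4ebp1* changed by −0.17 and −0.33 in batches 1 and 2, *eif4ebp2* by −0.13 and −0.17 and *eif4ebp3* by 0.45 and −0.08. Both OF fish lay above both controls for *eif4ebp3* in batch 1, and below them for *eif4ebp1* and *eif4ebp2* in batch 2. The brightest of the 4, *eif4ebp2*, had 10.13 and 10.11 in OF fish and 10.29 and 10.29 in controls of batch 2.

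Both of the initiation factors called higher in batch 1 are genes that oocytes use. The gene *eif4e1b* encodes the eIF4E form of oocytes, and *eif4enif1* encodes a transporter that holds eIF4E in silent mRNA particles. They are known to act together in Xenopus oocytes. The gene *eif4e1b* had 6.58 and 3.63 in OF fish and 1.50 and 1.77 in controls of batch 1 (3.47 ± 1.06). The gene *eif4enif1* had 7.87 and 6.40 in OF fish and 4.97 and 4.70 in controls (2.30 ± 0.55). Without either one of the 2 controls neither gene kept its call, with changes of 3.34 and 3.61 for *eif4e1b* and of 2.44 and 2.16 for *eif4enif1* without control fish 1 and 2. OF fish 1, which has the higher value in both genes, also has the higher oocyte markers: *zp3b*, an egg coat gene, had 9.15 and 7.52 in OF fish and 1.66 and 2.57 in controls. The log2 of the summed signals of the 10 oocyte genes was 11.05 and 9.33 in OF fish and 5.20 and 5.41 in controls of batch 1. Their part in the 2 calls was not tested. In batch 2, *eif4e1b* had 2.45 and 1.33 in OF fish and 1.55 and 3.22 in controls, with no call. There *eif4enif1* had 6.19 and 6.01 in OF fish and 6.43 and 6.87 in controls (−0.55), also with no call. The oocyte medians of these fish were 3.29 and 1.90 (OF) and 2.78 and 3.54 (controls). The highest value among the 10 oocyte genes was 6.25 and 2.79 in these OF fish and 4.53 and 6.17 in these controls. The part of oocyte RNA in the batch 2 signal of *eif4enif1* was not tested.

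**Figure D4:**
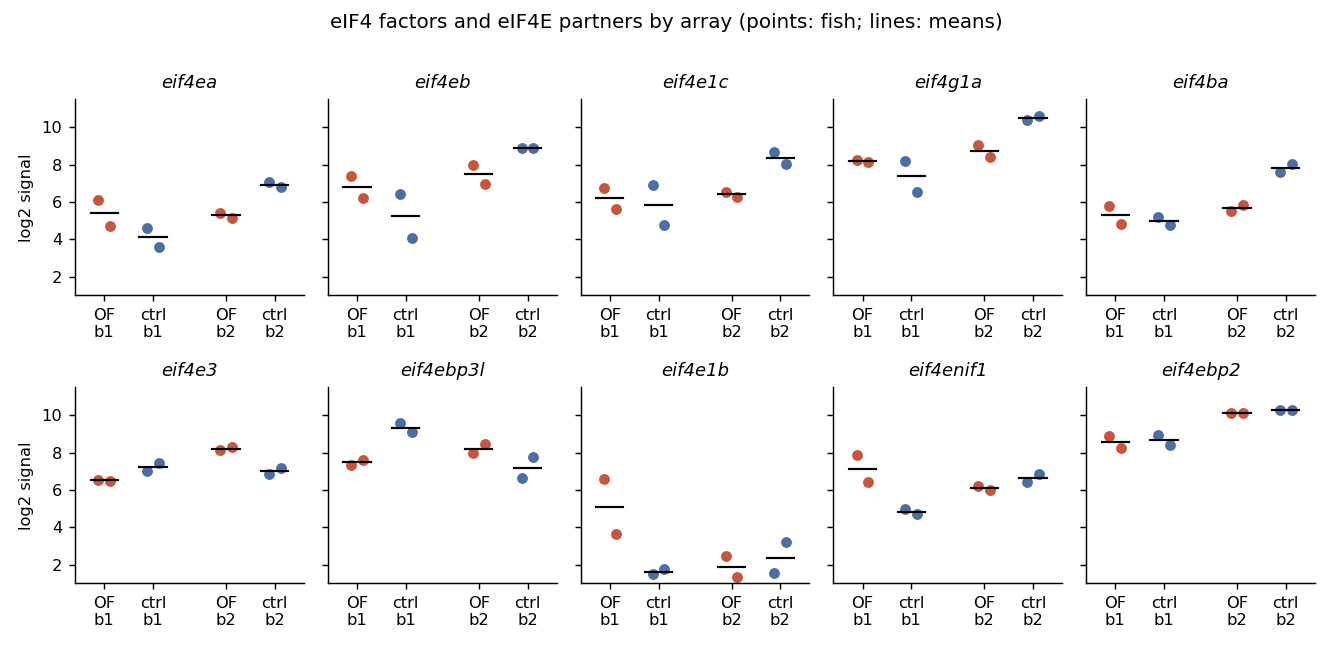
Log2 signal (vertical axis) of 10 genes for eIF4 factors and eIF4E partners in OF fish (red) and control fish (blue, "ctrl") of batch 1 (b1) and batch 2 (b2); points are fish and lines are means of 2. In batch 2 the OF points of *eif4ba* (5.52 and 5.82) lie below the control points (7.61 and 8.06), and those of *eif4e3* (8.11 and 8.28) lie above them (6.83 and 7.18).

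The other initiation factors were read by group. The eIF3 complex, which holds the small subunit and the mRNA together, had small median changes in its core (0.00 and −0.16 in batches 1 and 2). Of 15 core genes, 0 were called in either batch, against 4.94% of all genes called lower in batch 2. A set this small would hold few calls at that share. Of the 12 with a mean log2 signal of 4 or more, 9 had a negative change in batch 2. Both OF fish lay below both controls for 5 of the 12 (41.7%, against 20.6% of all genes) and above them for 1 (8.33%, against 22.2%). That 1 gene, *eif3i*, had 11.27 and 11.2 in OF fish and 11.04 and 11.12 in controls of batch 2. Both genes of eIF3j, a loosely bound subunit, were called lower in batch 2. The gene *eif3jb* had 5.85 and 5.52 in OF fish and 7.78 and 7.19 in controls (−1.80 ± 0.30), and *eif3ja* had 5.66 and 6.06 in OF fish and 6.83 and 6.96 in controls (−1.03 ± 0.24). In batch 1 both overlapped, with changes of 0.03 and 0.09. The brightest initiation factor, the core gene *eif3k*, changed by −0.80 in batch 1 and by 0.00 in batch 2.

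The genes of the subunits of eIF2, which carries the starting tRNA, gave no call in either batch. The gene *eif2s1a*, for the alpha subunit that stress kinases phosphorylate, had 6.90 and 6.82 in OF fish and 7.01 and 7.05 in controls of batch 2 (−0.17). In batch 1 it had 6.59 and 6.14 in OF fish and 5.59 and 5.78 in controls (0.68 ± 0.24). Its groups were apart in both batches, on opposite sides, as were those of *eif2s3* (0.57 in batch 1 and −0.33 in batch 2). The paralog *eif2s1b* and the gene *eif2s2* overlapped in both batches. Of the 5 genes of eIF2B, which recharges eIF2 with GTP, *eif2b3* was called lower in batch 2, with 4.57 and 4.27 in OF fish and 5.50 and 5.45 in controls (−1.06 ± 0.22), and not without OF fish 2 (−0.91). The catalytic subunit gene *eif2b5* was lower in both batches: 5.18 and 5.7 in OF fish and 6.05 and 5.95 in controls of batch 1, and 6.71 and 7.00 in OF fish and 7.02 and 7.32 in controls of batch 2.

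Genes of later steps of initiation had negative changes in batch 2. The gene *eif6*, whose product keeps the large subunit free, had 7.35 and 7.83 in OF fish and 8.63 and 8.68 in controls (−1.07 ± 0.25, called lower). The gene *eif5b*, for subunit joining, changed by −0.92 ± 0.21 and *eif5*, whose product makes eIF2 hydrolyse its GTP, by −0.73 ± 0.23. All 3 lay above the controls in batch 1 and below them in batch 2, with no overlap. The gene *eif1axa*, for a scanning factor, was called lower in batch 2, with 6.81 and 6.74 in OF fish and 8.30 and 7.67 in controls (−1.22 ± 0.29), and had 7.77 and 6.34 in OF fish and 6.27 and 4.25 in controls of batch 1. The genes of eIF5A, which helps ribosomes past difficult residues, gave no call: *eif5a* changed by 0.08 and 0.07 and *eif5a2* by 0.38 and −0.72 in batches 1 and 2.

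Over the 58 initiation factors counted, 10 were called lower in batch 2 (17.2%, against 4.94% of all genes). Their median change was −0.31, against 0.21 in batch 1. Over the 32 synthetases, 10 were called lower in batch 2 (31.2%, against 4.94% of all genes) and the median was −0.66.

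Of the 14 elongation factor genes counted, 1 was called lower in batch 2 (7.14%, against 4.94% of all genes). It was the kinase gene *eef2k*, and the median change of the 14 genes was −0.17. Of the 7 genes of eEF1 and the 4 of eEF2, 0 were called in either batch. Over all genes, 3.21% to 4.94% were called per batch and direction, so sets this small would hold few calls at that share. The brightest member, the cluster shared by *eef1a1l1* and *eef1a1l2* for eEF1A, had 12.87 and 12.79 in OF fish and 12.81 and 12.83 in controls of batch 2. In batch 1 it had 12.63 and 12.79 in OF fish and 12.46 and 12.58 in controls. The change was 0.20 ± 0.18 in batch 1, with both OF fish above both controls, and 0.01 ± 0.19 in batch 2, where they overlapped. The main eEF2 gene *eef2b* had 12.69 and 12.28 in OF fish and 12.51 and 12.80 in controls of batch 2 (−0.17 ± 0.25), and its groups overlapped. The genes of the eEF1 exchange factor, *eef1db*, *eef1da* and *eef1g*, had changes of 0.55, 0.23 and 0.48 in batch 1 and of −0.17, −0.05 and −0.55 in batch 2.

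In 2 elongation genes, *eef2k* and *eef2l2*, both OF fish lay below both controls in each batch. This was so for 3 of the 104 members, against 585 of all 22657 genes. The gene *eef2k* encodes the kinase that phosphorylates eEF2 and slows elongation. It had 5.45 and 6.76 in OF fish and 7.12 and 7.05 in controls of batch 1, and 7.17 and 6.74 in OF fish and 8.08 and 8.42 in controls of batch 2. The change was −0.98 ± 0.49 in batch 1, −1.30 ± 0.26 in batch 2 (called lower) and −1.14 ± 0.29 over both batches (limma, adjusted p = 0.955).

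In the fit over both batches, 0 members were higher at an unadjusted p under 0.05 (against 2.73% of all genes) and 3 lower (against 2.66%): *eef2k*, *eef2l2* and *eif2b5*. Thus 3 of 104 members in this direction is near the background. Without OF fish 2 of batch 1 there were 9, and without control fish 2 of that batch 8. The gene *eef2l2*, an eEF2 relative, had 2.01 and 1.72 in OF fish and 2.66 and 2.31 in controls of batch 1, and 4.68 and 4.98 in OF fish and 5.21 and 5.21 in controls of batch 2 (−0.50 ± 0.15 over both). Its batch 1 signals lay around the median signal of those arrays (2.11 to 2.13), near the floor. Over both batches *eef2l2* missed the p threshold with a trended and robust fit and without the batch term. The gene *eif2b5* changed by −0.44 ± 0.17 over both, and its second cluster by −0.18 and −0.66 in batches 1 and 2.

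Of the 104 genes, 66 had a positive change in batch 1 and a negative one in batch 2, and 9 the opposite. The difference between the batches (batch 2 minus batch 1) reached an unadjusted p under 0.05 for 32 members (30.8%, against 19.7% of all genes), and 30 of the 32 differences were negative. Without control fish 2 of batch 1, 21 members reached it. The 2 positive ones were *eif4e3* and *eif4ebp3l*. By group, it was reached by 8 of 19 cytosolic synthetases, 11 of 17 eIF4 factors, 0 of 15 core eIF3 genes and 0 of 14 elongation factors. For 20 members both OF fish lay on opposite sides of the controls in the 2 batches with such a difference (against 10.8% of all genes).

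**Figure D5:**
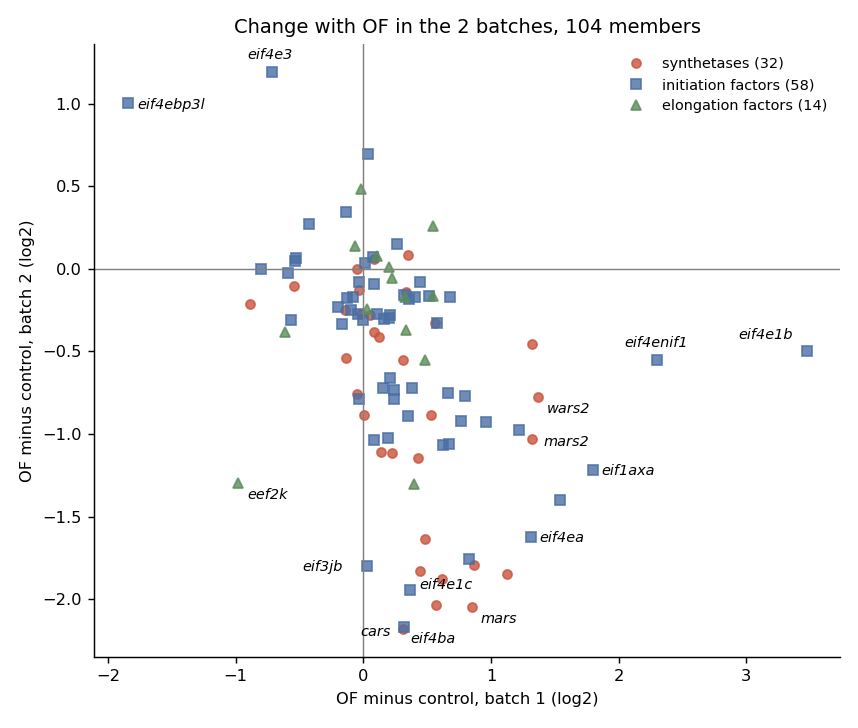
Change with OF (log2) of the 104 members in batch 1 (horizontal axis) and batch 2 (vertical axis), with synthetases as red circles, initiation factors as blue squares and elongation factors as green triangles. Most points (66 of 104) lie at the lower right, higher in batch 1 and lower in batch 2; *eef2k* lies in the lower left (−0.98 and −1.30) and *eif4e3* and *eif4ebp3l* in the upper left.

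Genes around the members were read from lists of related steps. Of 8 genes for termination and ribosome recycling, 3 were called lower in batch 2 (37.5%, against 4.94% of all genes) and 0 in batch 1. The release factor gene *etf1b* had 7.27 and 7.36 in OF fish and 9.10 and 9.24 in controls of batch 2 (−1.85). The recycling factor gene *abce1* had 8.45 and 7.23 in OF fish and 9.73 and 9.96 in controls (−2.0), and *pelo*, for the rescue of stalled ribosomes, had a change of −1.68. In all 3 genes the groups were apart in batch 2.

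Of 33 genes that respond to amino acid shortage, 3 were called lower in batch 2 (9.09%, against 4.94% of all genes) and 1 higher (3.03%, against 3.21%). In batch 1, 4 were called lower (12.1%, against 4.58%) and 4 higher (12.1%, against 4.89%). The median change in batch 2 was −0.40. Both OF fish lay below both controls for 14 of the 33 (42.4%, against 20.6% of all genes) and above them for 4 (12.1%, against 22.2%). In batch 1 the median change was −0.02. There the OF fish lay below both controls for 13 (39.4%, against 24.2% of all genes) and above them for 8 (24.2%, against 21.4%). The share below was thus similar in the 2 batches. The asparagine synthetase gene *asns* had 8.07 and 6.31 in OF fish and 8.23 and 9.18 in controls of batch 2. The factor gene *atf4a*, which drives many synthetase genes in mammals, had 7.78 and 8.37 in OF fish and 8.62 and 8.96 in controls of batch 2 (−0.72), and 8.04 and 8.11 in OF fish and 7.54 and 7.17 in controls of batch 1 (0.73). Its groups were apart in both batches, on opposite sides, and neither change reached 2-fold.

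Of 5 genes for eIF2 alpha kinases and their phosphatase, 1 was called lower in each batch (against 4.58% and 4.94% of all genes in batches 1 and 2). The ER kinase gene *eif2ak3* had 5.37 and 5.71 in OF fish and 6.66 and 7.78 in controls of batch 2 (−1.68). The phosphatase subunit gene *ppp1r15a* had 5.63 and 5.38 in OF fish and 7.83 and 8.51 in controls of batch 1 (−2.67). The mTORC1 pathway acts on the eIF4E binding proteins and S6 kinases. Of 25 genes of this pathway, 3 were called lower in batch 1 (against 4.58% of all genes). In batch 2, 2 were called higher (against 3.21%) and 2 lower (against 4.94%). Whether these counts differ from those of all genes was not tested. The stress-induced mTORC1 inhibitor gene *sesn1* had 5.51 and 6.22 in OF fish and 9.07 and 8.56 in controls of batch 1, and 8.24 and 8.08 in OF fish and 6.14 and 6.88 in controls of batch 2. It thus turned between batches in the same direction as *eif4ebp3l* and *eif4e3*. The S6 kinase gene *rps6kb1b* was called lower in batch 2 (−1.31).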

How the data were processed

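Liver RNA of 8 zebrafish was read on GeneTitan arrays. Per the methods, the authors corrected the signals for GC content and applied a signal space transformation in the Transcriptome Analysis Console. The log2 signals they deposited cover 75212 clusters. Worksheets deposited by the authors also hold average intensity and log2 values of each group, which were used only to check the value table and gave no printed value, and the authors' fold changes as ratios and p-values, which were not used. After removal of 84 control clusters, 59300 were tested. No coordinates are printed, since no source names their genome build.

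Fish were grouped by their labels. Log2 signals were fitted with limma 3.58.1 (lmFit and eBayes) in R 4.3.3, within each batch, over both batches with batch as an additive term, and for the difference between batches. Adjusted p-values are Benjamini-Hochberg values over all 59300 clusters, and 0, 6, 0 and 3 clusters passed 0.05 in batch 1, in batch 2, over both and for the difference. The fits were tested on simulated data. Python 3.11.15 with pandas 2.3.3 made the tables, and matplotlib 3.10.9 the figures. Arrays had median log2 signals of 2.11 to 2.13 in batch 1 and of 2.54 to 2.63 in batch 2, so levels were compared within a batch only. Within a batch and for the difference between batches, p-values set each change against the spread between fish of a group. In the fit over both batches that spread also holds the difference of the change between the batches. For *eif4ebp3l*, which turned, the SE was 0.60 over both batches and 0.26 in batch 1. In each fit eBayes moderates the spread with that of all clusters. Symbols are spelled as in the files, and 16 of the 106 members carry another symbol in the RefSeq table of GRCz12tu. That table also named 5643 clusters through accessions, used for the related lists only.

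The genes described in full are, per class, the 4 members with the smallest p in each batch and the 3 over both, the brightest member, and by role the eIF4E binding proteins and the main eIF2, eIF5A and elongation genes (36 genes), and the 3 of each related list with the smallest p. The further members of the called groups and the further list genes were chosen once their values had been seen. The members and lists were chosen with earlier results of these data known. Alternatives were quantile normalization, a filter on dim clusters, other clusters or fits, the replicate number as a block, and leaving out each array.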

Additional observations from a re-analysis of the deposited data

Results flagged for a closer look

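For 20 members the change with OF differed between the batches (limma interaction, unadjusted p under 0.05), with both OF fish on opposite sides of both controls in the 2 batches. The differences below are the change in batch 2 minus that in batch 1 on the log2 scale, and none passed an adjusted p of 0.05. Among the synthetases they were −2.60 for *yars*, −2.49 for *larsb*, −2.27 for *vars* and −2.12 for *rars* in the cytosol, and −2.35 for *mars2*, −2.14 for *wars2* and −1.77 for *pars2* in mitochondria. Each of these 7 genes was higher with OF in batch 1 and lower in batch 2.

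Among the initiation factors they were −2.93 for *eif4ea*, −1.56 for *eif4g2b*, −1.03 for *eif4h*, −0.88 for *eif4a3* and −2.85 for *eif4enif1* by the eIF4 name. For the start of scanning and the delivery of the first tRNA they were −3.01 for *eif1axa*, −1.73 for *eif2b3* and −0.85 for *eif2s1a*. For subunit joining they were −1.69 for *eif5b*, −1.69 for *eif6* and −0.97 for *eif5*. The 2 genes with the opposite turn, lower with OF in batch 1 and higher in batch 2, were *eif4ebp3l* (2.84) and *eif4e3* (1.91). No elongation factor was in this set. Groups of 2 fish are too small for a check for outlying fish.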

How the results depend on the processing

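The alternatives were run for 22 results of 20 called or leading genes, and none turned the direction of these. Other named genes were not run, apart from calls in batch 2 without OF fish 2. With the filter on dim clusters, *eif4e1b*, *pars2*, *wars2* and *eef2l2* had no value. Of 250 values, 223 kept their side of the threshold and 27 lost it, 8 of these without leaving out an array, all in *eef2l2* or *eif2b5* over both batches or *mars2* in batch 2. Without one of the control fish or OF fish 1, calls were lost in batch 1 for *mars2*, *pars2*, *eif4e1b* and *eif4enif1*, and *wars2* kept its call. In batch 2 the call of *vars* was lost without OF fish 2 or control fish 2.

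In batch 1, 2 members were called higher in place of 5 with the filter on dim clusters. The replicate numbers do not mark shared animals, and the deviations of same-numbered fish correlated at 0.113 in batch 1 and −0.0727 in batch 2, so they pair nothing. With the number as a replicate block, 9 members were called higher in batch 1, 2 higher in batch 2 in place of 1, and 20 lower in batch 2 in place of 21. With a spread shared by the batches, 2 were called higher in batch 2. Over both batches, 1 member was lower in place of 3 with the filter, without the batch term and with the trended and robust fit. Called members ranged, when each array was left out, from 1 to 11 (higher, batch 1), 1 to 6 (lower, batch 1), 1 to 2 (higher, batch 2) and 16 to 28 (lower, batch 2). The count of cytosolic synthetases lower in batch 2, an outcome added after seeing the data, ranged from 5 to 13, and that of the eIF4 factors from 4 to 7. The second gene called higher appeared in batch 2 without control fish 2. Over both batches the counts ranged from 0 to 1 (higher, the 1 without control fish 2 of batch 1 or OF fish 2 of batch 2) and 2 to 9 (lower), and for the difference between batches from 21 to 39 in place of 32. The array behind the low ends in batch 1 (1 called higher) and of the difference (21) was control fish 2 of batch 1. The median change of the synthetases in batch 1 ranged from 0.0204 to 0.454.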
